A study of Mus musculus with 48 samples.

Results

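The lysosomal hydrolases, membrane proteins and regulators described here are 37 genes picked by symbol from the 22485 gene symbols of the array: 12 proteases, 9 glycosidases, 7 proteins of lipid hydrolysis and transport, 7 membrane proteins and 2 regulators. Where a gene had several probes, the brightest on average was used. All 37 had a probe, and no low value was filtered out, so all 37 were tested. They were followed in 48 culture wells, of which 17 received Copaxone (the brand version of glatiramer acetate, GA, from 9 lots), 16 received Glatopa (a generic GA, from 4 lots), 8 received ACN (spelled AcN in the labels, a related but chemically distinct glatiramoid, from 1 lot) and 7 received medium with mannitol and no test article (media-only control). Every well held 0.5 mL of naive Balb/c splenocytes at 10000000 cells/mL as antigen-presenting cells and 0.5 mL of Th2-455 cells at 2000000 cells/mL, and was harvested after 24 h with 20 µg/mL of article or with none. Th2-455 is a nonclonal Th2-polarized population of CD4+ T cells from female Balb/c mice aged 8 to 12 weeks, immunized with Copaxone and restimulated with it for 13 rounds, so the cells of every group, media-only control included, had been raised on Copaxone. The labels call the cell type CD4+ T cell, but the RNA of each array came from T cells and splenocytes together.

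Lysosomes are acidic organelles in which proteins, glycans and lipids taken up by endocytosis or delivered by autophagy are broken down. Cathepsins and other hydrolases do the cutting, heavily glycosylated membrane proteins such as LAMPs line the organelle, and transcription factors of the MiT/TFE family, TFEB among them, drive many of the genes through an E-box in their promoters called the CLEAR element. In antigen-presenting cells the same proteases trim antigens and the invariant chain before peptides are loaded on MHC class II, and macrophages carry especially many lysosomes.

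Values are given on the log2 scale as deposited, on which each array had been brought to the same distribution and array medians lay between 4.95 and 5.02. A gene is called higher or lower where limma gave an adjusted p under 0.05 over all 39430 probes. The p-values measure the spread between wells, since the labels do not name separate cultures or animals behind them, and in bulk RNA fewer cells of a type and less RNA per cell cannot be told apart.

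Of the 37 lysosomal genes, 15 (40.5%) were lower and 2 (5.41%) were higher with Copaxone than in media-only control, where 7.46% of all probes were lower and 8.71% were higher. With Glatopa, 16 (43.2%) were lower and 2 were higher, against 8.56% and 10.3% of all probes. With ACN, 12 (32.4%) were lower and 1 (2.7%) was higher, against 3.36% and 3.73%. These comparisons share the 7 media-only samples. The median difference of the 37 genes was -0.23 with Copaxone, -0.20 with Glatopa and -0.25 with ACN, while the median over all probes was -0.00 in each. Lysosomal genes are bright on this array, and among the brighter part of the probes (mean above the median of all probe means) 15.8% were lower with Copaxone, as were 15 of the 36 lysosomal genes found there. When arrays were rescaled with cyclic loess, the share of higher probes among all called probes dropped from 53.9% to 42.3% with Copaxone, from 54.7% to 45.6% with Glatopa and from 52.6% to 41.1% with ACN, and of the 37 genes 18, 21 and 14 were lower and 1, 2 and 0 were higher.

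**Figure D1:**
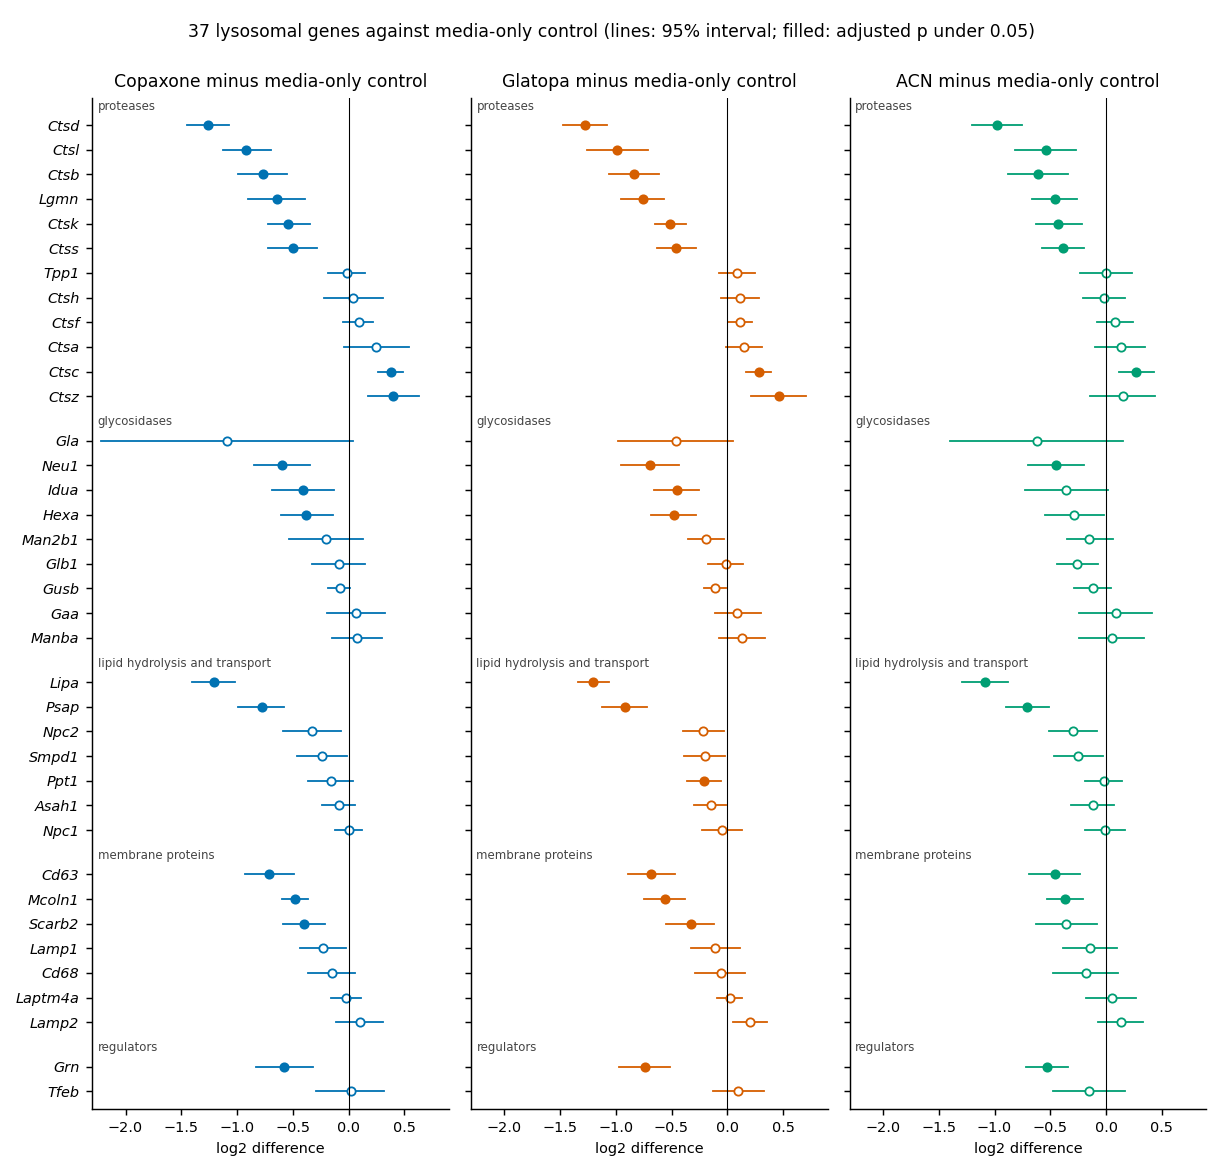
Difference from media-only control of each of the 37 lysosomal genes (log2 scale, x axis) with Copaxone, Glatopa and ACN, grouped by role and ordered by the Copaxone difference. Lines are 95% intervals, and filled points are called. Ctsd and Lipa lie farthest left of the called genes in all 3 panels, and the called genes to the right of 0 are Ctsc and, with Copaxone and Glatopa, Ctsz.

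By role, the 15 genes lower with Copaxone were 6 of 12 proteases, 3 of 9 glycosidases, 2 of 7 lipid proteins, 3 of 7 membrane proteins and 1 of 2 regulators. Both higher genes were proteases. The counts were the same with Glatopa except for 3 lipid proteins in place of 2. With ACN, 6 proteases, 1 glycosidase, 2 lipid proteins, 2 membrane proteins and 1 regulator were lower, and 1 protease was higher. Of the 37 genes, 12 were lower with every article (Ctsd, Ctsl, Ctsb, Lgmn, Ctsk, Ctss, Neu1, Lipa, Psap, Cd63, Mcoln1 and Grn), and 19 were called with none. ACN came from 1 lot, so lot and article cannot be told apart in it. With lot as a random block, Ctsd, Lipa, Psap and Grn kept their ACN call (adjusted p from 0.000154 to 0.0254), and the other 8 genes lost it (adjusted p from 0.0739 to 0.195) with the same log2 differences. In that fit all ACN wells were 1 block and each media-only well was its own. It therefore cannot show whether an ACN call depends on the lot.

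The promoters of Ctsd, Mcoln1 and Lipa are shown because these genes were lower with every article, and that of Ctsa because it holds the same motif and was not called. The windows are from RefSeq (GRCm38.p6) and run from 250 bases before to 50 bases after the annotated start, read 5′ to 3′ on the strand of the gene: chr7:142387778-142388077 (minus strand) for Ctsd, chr8:3500269-3500568 (plus strand) for Mcoln1, chr19:34527425-34527724 (minus strand) for Lipa and chr2:164833523-164833822 (plus strand) for Ctsa. Capitals mark CACGTG, the E-box at the centre of the CLEAR element.
Ctsd: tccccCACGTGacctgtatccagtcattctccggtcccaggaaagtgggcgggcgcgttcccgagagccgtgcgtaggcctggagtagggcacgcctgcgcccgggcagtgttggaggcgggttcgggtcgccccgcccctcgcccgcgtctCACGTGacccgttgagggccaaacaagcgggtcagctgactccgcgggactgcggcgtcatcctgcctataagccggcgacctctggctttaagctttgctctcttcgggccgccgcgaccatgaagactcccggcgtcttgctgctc
Mcoln1: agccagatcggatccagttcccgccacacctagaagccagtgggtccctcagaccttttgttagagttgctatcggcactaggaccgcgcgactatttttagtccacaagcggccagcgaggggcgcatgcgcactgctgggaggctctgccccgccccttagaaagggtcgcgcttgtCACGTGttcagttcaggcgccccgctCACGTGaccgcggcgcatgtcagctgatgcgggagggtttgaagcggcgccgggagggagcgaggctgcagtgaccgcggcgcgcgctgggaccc
Lipa: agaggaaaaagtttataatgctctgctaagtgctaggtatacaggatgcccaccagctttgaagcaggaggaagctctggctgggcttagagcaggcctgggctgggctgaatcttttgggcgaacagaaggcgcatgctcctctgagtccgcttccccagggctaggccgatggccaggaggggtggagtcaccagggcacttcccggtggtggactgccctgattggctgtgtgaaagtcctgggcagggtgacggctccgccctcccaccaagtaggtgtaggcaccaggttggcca
Ctsa: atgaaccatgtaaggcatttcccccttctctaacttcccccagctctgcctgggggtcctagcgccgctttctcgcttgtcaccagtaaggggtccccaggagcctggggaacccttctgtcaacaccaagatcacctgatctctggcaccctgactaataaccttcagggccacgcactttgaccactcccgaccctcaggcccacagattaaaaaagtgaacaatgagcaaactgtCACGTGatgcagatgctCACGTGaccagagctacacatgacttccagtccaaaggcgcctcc

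The motif CACGTG and its extension TCACGTGA, which contains it, were searched on both strands (both read the same on either strand). RefSeq windows were at hand for 33 of the 37 genes, with 38 windows in all. CACGTG stood in 10 of the 38 windows (26.3%), each of a different gene, and in 7.15% of the 32851 windows of all genes. TCACGTGA stood in 4 of the 38 (10.5%) and in 0.974% of all. The genes with TCACGTGA were Ctsd (motif from position -98, negative positions lying before the start), Mcoln1 (from -45), Ctsa and Gla, the first pair lower with Copaxone and the other two not called. Of the 10 genes with CACGTG, 4 were lower with Copaxone and 6 were not called, and of the 33 genes with a window 14 were lower, 2 were higher and 17 were not called. Lipa, lower with every article, had no CACGTG in its window, and Lamp1, not called, had 4. A match of letters is a description of the window and says nothing of what binds there.

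Ctsd encodes cathepsin D, the main aspartic protease of lysosomes. Its level ran from 9.97 to 10.72 in media-only control (median 10.32), from 8.68 to 9.36 with Copaxone (median 9.09), from 8.72 to 9.36 with Glatopa (median 9.06) and from 9.07 to 9.53 with ACN (median 9.41). Every sample with an article was below every media-only sample. Ctsd was lower by 2.40-fold with Copaxone (log2 difference -1.26 ± 0.09 SE, adjusted p = 1.44e-10), 2.42-fold with Glatopa (-1.28 ± 0.09, adjusted p = 1.41e-10) and 1.97-fold with ACN (-0.98 ± 0.11, adjusted p = 1.57e-05). The other probe of Ctsd, dimmer on average (6.89 against 9.31), was also called lower, by -0.95, -0.93 and -0.67.

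Lipa encodes lysosomal acid lipase, which frees cholesterol and fatty acids from lipoproteins taken up by the cell. It ran from 7.54 to 8.09 in media-only control (median 7.91), from 6.20 to 7.05 with Copaxone (median 6.64), from 6.43 to 6.96 with Glatopa (median 6.65) and from 6.46 to 7.12 with ACN (median 6.73). No sample with an article reached the media-only range. The difference was -1.21 ± 0.09 with Copaxone (2.31-fold lower, adjusted p = 3.73e-10), -1.20 ± 0.07 with Glatopa (2.30-fold, adjusted p = 5.57e-13) and -1.09 ± 0.10 with ACN (2.12-fold, adjusted p = 2.25e-06). Psap, the precursor of the saposins that help hydrolases reach sphingolipids, showed the same separation. It ran from 9.84 to 10.20 in media-only control (median 10.08), from 8.78 to 9.64 with Copaxone (median 9.32), from 8.41 to 9.42 with Glatopa (median 9.12) and from 9.13 to 9.68 with ACN (median 9.27). Its difference was -0.78 ± 0.10, -0.92 ± 0.10 and -0.71 ± 0.09 (adjusted p = 1.22e-06, 8.18e-08 and 9.92e-05).

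**Figure D2:**
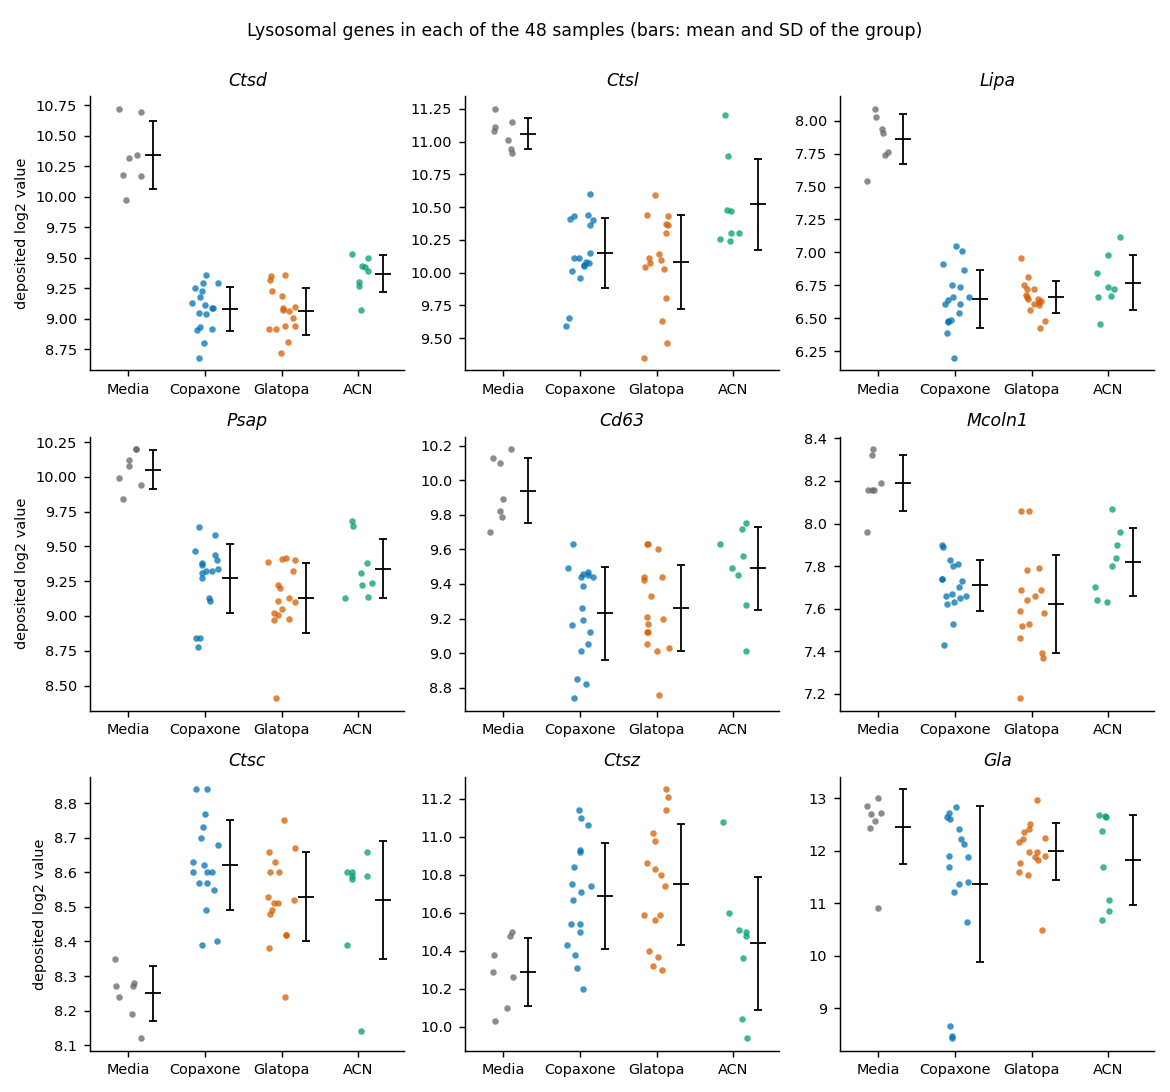
Deposited log2 values (y axis) of 9 lysosomal genes in each of the 48 samples, by group. Points are samples, and bars give the mean and SD of the group. Ctsd, Lipa and Psap show no overlap between media-only control and any article. Ctsc with every article and Ctsz with Copaxone and Glatopa lie mostly above media-only control, while Ctsz with ACN overlaps it. For Gla, 3 Copaxone samples sit near 8.5, apart from the rest.

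The cysteine proteases of the list split by direction. Ctsl, cathepsin L, ran from 10.91 to 11.25 in media-only control, from 9.59 to 10.60 with Copaxone, from 9.35 to 10.59 with Glatopa and from 10.24 to 11.20 with ACN, with medians of 11.08, 10.11, 10.10 and 10.38. The Copaxone and Glatopa ranges lay below the media-only range, and of the ACN samples only replicate 4, at 11.20, was within it. The differences were -0.92 ± 0.10 (adjusted p = 2.96e-07), -0.99 ± 0.13 (adjusted p = 2.61e-06) and -0.54 ± 0.13 (adjusted p = 0.0146). Ctsb, cathepsin B, had ranges of 9.87 to 10.52 in media-only control, 8.91 to 9.91 with Copaxone, 8.74 to 9.79 with Glatopa and 9.20 to 10.13 with ACN, with medians of 10.12, 9.46, 9.37 and 9.56. It was below all media-only samples in 16 of 17 Copaxone, 16 of 16 Glatopa and 7 of 8 ACN samples. The differences were -0.77 ± 0.11, -0.84 ± 0.11 and -0.61 ± 0.13 (adjusted p = 6.41e-06, 1.54e-06 and 0.00573).

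Lgmn encodes legumain, an asparaginyl endopeptidase that also activates cathepsins. It ran from 10.69 to 11.26 in media-only control (median 10.82), from 9.53 to 10.73 with Copaxone (median 10.30), from 9.69 to 10.51 with Glatopa (median 10.11) and from 10.16 to 10.64 with ACN (median 10.47). Only 1 Copaxone sample overlapped the media-only range, and the Glatopa and ACN samples did not. The differences were -0.64 ± 0.12 (adjusted p = 0.000358), -0.76 ± 0.09 (adjusted p = 7.43e-07) and -0.46 ± 0.09 (adjusted p = 0.00516). Ctsk, cathepsin K, known for bone collagen breakdown in osteoclasts, was dimmer, at 6.41 to 6.91 in media-only control (median 6.62), 5.62 to 6.65 with Copaxone (median 6.13), 5.92 to 6.35 with Glatopa (median 6.14) and 5.90 to 6.53 with ACN (median 6.24). It differed by -0.54 ± 0.09, -0.51 ± 0.07 and -0.43 ± 0.10 (adjusted p = 6.96e-05, 2.87e-06 and 0.013), and 16 of 17, 16 of 16 and 7 of 8 samples were below the media-only range. Ctss encodes cathepsin S, which cuts the invariant chain in antigen-presenting cells. It ran from 10.72 to 11.27 in media-only control (median 11.00), from 9.99 to 11.00 with Copaxone (median 10.48), from 10.24 to 10.89 with Glatopa (median 10.49) and from 10.41 to 10.84 with ACN (median 10.60). Its groups overlapped more, with 14 of 17, 13 of 16 and 6 of 8 samples below the media-only range, and the differences were -0.50 ± 0.11, -0.46 ± 0.08 and -0.39 ± 0.09 (adjusted p = 0.00132, 0.000209 and 0.0126).

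Ctsc and Ctsz moved the other way. Ctsc encodes cathepsin C, the dipeptidyl peptidase that activates serine proteases of cytotoxic and mast cell granules. It ran from 8.12 to 8.35 in media-only control (median 8.27), from 8.39 to 8.84 with Copaxone (median 8.60), from 8.24 to 8.75 with Glatopa (median 8.52) and from 8.14 to 8.66 with ACN (median 8.59). All 17 Copaxone, 15 of 16 Glatopa and 7 of 8 ACN samples were above every media-only sample. The differences were 0.38 ± 0.06 (1.30-fold higher, adjusted p = 1.37e-05), 0.28 ± 0.05 (1.21-fold, adjusted p = 0.000357) and 0.27 ± 0.07 (1.21-fold, adjusted p = 0.0303). The call with ACN was lost when any of 9 samples was left out (ACN replicate 2, 3, 5, 6, 7 or 8, or Media replicate 3, 6 or 7), with differences of 0.25 to 0.27 and adjusted p from 0.0522 to 0.0632, and it was also lost with cyclic loess (0.20, adjusted p = 0.0841), with an intensity trend in the variance and without the 4 arrays least like their group.

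Ctsz encodes cathepsin Z, a carboxypeptidase. It ran from 10.03 to 10.50 in media-only control (median 10.29), from 10.20 to 11.14 with Copaxone (median 10.71), from 10.30 to 11.25 with Glatopa (median 10.77) and from 9.94 to 11.08 with ACN (median 10.49). It was higher with Copaxone by 0.40 ± 0.11 (adjusted p = 0.0116) and with Glatopa by 0.46 ± 0.12 (adjusted p = 0.0074), with 13 of 17 and 12 of 16 samples above the media-only range. With ACN its difference of 0.15 ± 0.14 was not called (adjusted p = 0.675). The Copaxone call of Ctsz was lost with cyclic loess (0.27, adjusted p = 0.0595), with replicate number as a block (0.29, adjusted p = 0.3) and without the 4 arrays least like their group. The replicate block sets Copaxone against Media replicates 1 and 2 alone. The other 4 proteases were not called with any article. The differences with Copaxone were 0.25 for Ctsa, a carboxypeptidase that also protects the sialidase and the beta-galactosidase of lysosomes, 0.04 for the aminopeptidase Ctsh, 0.09 for Ctsf and -0.01 for Tpp1, a tripeptidyl peptidase. The probes of Ctsf and Tpp1 were near the array median, with means of 4.93 and 5.08 over all samples, and Ctsf was called higher with Glatopa when Media replicate 2 was left out (0.15, adjusted p = 0.0314).

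Among the glycosidases, Neu1 (the lysosomal sialidase) ran from 8.27 to 9.13 in media-only control (median 8.98), from 7.89 to 8.75 with Copaxone (median 8.36), from 7.59 to 8.53 with Glatopa (median 8.29) and from 8.23 to 8.77 with ACN (median 8.42). The ranges overlapped because of Media replicate 4, at 8.27, whereas the next media-only sample was at 8.87. The differences were -0.60 ± 0.12, -0.69 ± 0.13 and -0.45 ± 0.12 (adjusted p = 0.000571, 0.000167 and 0.0258). The ACN call was lost when ACN replicate 3, 5 or 8 or Media replicate 1, 2, 5, 6 or 7 was left out, with adjusted p from 0.0504 to 0.0546. Idua, the iduronidase that acts on heparan and dermatan sulfate, ran from 12.79 to 13.41 in media-only control (median 13.15), from 12.07 to 13.37 with Copaxone (median 12.74), from 12.17 to 13.13 with Glatopa (median 12.73) and from 11.63 to 13.25 with ACN (median 12.90). It was called with Copaxone (-0.41 ± 0.14, adjusted p = 0.0366) and Glatopa (-0.45 ± 0.10, adjusted p = 0.00118), and not with ACN (-0.36 ± 0.18, adjusted p = 0.328). The Copaxone call was lost without Copaxone lot 1, 2 or 4 or without Media replicate 1, 2, 3, 4, 6 or 7 (adjusted p from 0.0516 to 0.0937), and with the t-test of the methods (adjusted p = 0.055). The dimmer probe of Idua (mean 5.29) differed by -0.10, -0.10 and -0.18, none of them called.

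Hexa, the alpha subunit of the hexosaminidase that degrades GM2 ganglioside, was lower with Copaxone by -0.38 (adjusted p = 0.0225) and with Glatopa by -0.48 (adjusted p = 0.000444), and differed by -0.29 with ACN (adjusted p = 0.236). The Copaxone call was lost without Media replicate 2, 3 or 4 (adjusted p from 0.0529 to 0.0744), and without Media replicate 1 the ACN difference was called (-0.38, adjusted p = 0.0484). Man2b1, Manba, Glb1, Gusb and Gaa, which remove mannose, galactose, glucuronic acid and glucose residues, differed by -0.20 to 0.08 with Copaxone and were not called with any article. Leaving out single samples or lots brought 2 of them past the threshold, Man2b1 with Glatopa (without Glatopa lot 2 or Media replicate 1, -0.26 to -0.23) and Glb1 with ACN (without ACN replicate 4 or Media replicate 6, -0.32 to -0.29). With cyclic loess Man2b1 was called with Glatopa (-0.27), Glb1 with ACN (-0.30), and Gusb with Copaxone (-0.15) and Glatopa (-0.16).

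Gla, the alpha-galactosidase that degrades globotriaosylceramide, varied most of the 37 genes. It ran from 10.91 to 13.01 in media-only control (median 12.70), from 8.43 to 12.83 with Copaxone (median 11.89), from 10.50 to 12.97 with Glatopa (median 11.98) and from 10.69 to 12.68 with ACN (median 12.03). The low Copaxone values came from lot 3 replicate 1 (8.43), lot 9 replicate 1 (8.47) and lot 8 replicate 1 (8.66), while lot 3 replicate 2 held the highest, 12.83. Its within-group SD was 1.04, above that of 99.2% of probes, and those of the other 36 genes were 0.11 to 0.33. The differences of -1.09 (95% interval -2.22 to 0.04), -0.46 (-0.98 to 0.05) and -0.62 (-1.40 to 0.15) were not called. Without Media replicate 2, the lowest media-only sample, the Glatopa difference was -0.72 and was called (adjusted p = 0.0164).

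The remaining lipid genes had smaller differences than Lipa and Psap. Ppt1, a thioesterase that removes palmitate from proteins, was called lower with Glatopa alone (-0.21, adjusted p = 0.0477, and -0.16 with Copaxone and -0.02 with ACN). Its call was lost without Glatopa lot 2 or 3 or without Media replicate 1, 2, 3, 4 or 7 (adjusted p from 0.0738 to 0.138), and in 4 other settings, such as the t-test of the methods (adjusted p = 0.0569). Npc2 and Npc1, which pass cholesterol out of the lysosome, differed by -0.33 and -0.00 with Copaxone. Smpd1 (acid sphingomyelinase) differed by -0.24 and Asah1 (acid ceramidase) by -0.09, and none of these was called with any article. Leaving out Media replicate 5 brought Asah1 past the threshold with Glatopa (-0.20, adjusted p = 0.0458). Without Media replicate 6, the lowest media-only sample of Smpd1, its differences were called with Copaxone (-0.32, adjusted p = 0.0379), Glatopa (-0.29, adjusted p = 0.00879) and ACN (-0.34, adjusted p = 0.018), and those of Npc2 were called with Glatopa (-0.27, adjusted p = 0.0371) and ACN (-0.35, adjusted p = 0.0459). The Copaxone difference of Npc2 was called in a fit of all 4 groups (-0.33, adjusted p = 0.0384), with cyclic loess (-0.44, adjusted p = 0.0175) and without the 4 arrays least like their group (-0.28, adjusted p = 0.0169). With cyclic loess Npc2 was also called with Glatopa (-0.31) and ACN (-0.37), and Smpd1 (-0.27) and Asah1 (-0.20) with Glatopa.

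Of the membrane proteins, Cd63, a tetraspanin of late endosomes and lysosomes, ran from 9.70 to 10.18 in media-only control (median 9.89), from 8.74 to 9.63 with Copaxone (median 9.26), from 8.76 to 9.63 with Glatopa (median 9.20) and from 9.01 to 9.75 with ACN (median 9.52). No Copaxone or Glatopa sample reached the media-only range, and 2 of 8 ACN samples did. The differences were -0.71 ± 0.11, -0.68 ± 0.10 and -0.46 ± 0.11 (adjusted p = 2.07e-05, 1.24e-05 and 0.0142). Mcoln1 encodes the lysosomal calcium channel mucolipin. It ran from 7.96 to 8.35 in media-only control (median 8.16), from 7.43 to 7.90 with Copaxone (median 7.70), from 7.18 to 8.06 with Glatopa (median 7.61) and from 7.63 to 8.07 with ACN (median 7.82). All 17 Copaxone, 14 of 16 Glatopa and 6 of 8 ACN samples were below the media-only range. The differences were -0.48 ± 0.06, -0.56 ± 0.09 and -0.37 ± 0.08 (adjusted p = 7.59e-07, 3.59e-05 and 0.00576).

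Scarb2, the receptor that carries beta-glucocerebrosidase to the lysosome, was lower with Copaxone (-0.40, adjusted p = 0.00265) and Glatopa (-0.33, adjusted p = 0.0236) and differed by -0.36 with ACN (adjusted p = 0.129). The Glatopa call was lost without Glatopa lot 1 or Media replicate 1, 2, 3 or 4 (adjusted p from 0.0508 to 0.0717), and with means per lot (adjusted p = 0.243). The ACN difference was called without Media replicate 6 (-0.44, adjusted p = 0.0346) and in a fit of all 4 groups (-0.36, adjusted p = 0.022). The main structural membrane proteins were not called. Lamp1 differed by -0.23 with Copaxone, -0.11 with Glatopa and -0.14 with ACN, none of them called. The Copaxone difference of Lamp1 was called without Media replicate 6 (-0.30, adjusted p = 0.0371), with cyclic loess (-0.35, adjusted p = 0.00471) and without the 4 arrays least like their group (-0.31, adjusted p = 0.042). Lamp2 differed by 0.10, 0.20 and 0.13, the Glatopa difference being called without Glatopa lot 1 or Media replicate 1 (0.22 to 0.23, adjusted p from 0.0351 to 0.0471), and its dimmer probe was called higher with Copaxone (0.35, adjusted p = 0.0357). Laptm4a, a small membrane protein, differed by -0.02 with Copaxone, and the macrophage marker Cd68, whose probe had a mean of 5.13, by -0.15, neither of them called with any article.

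Of the 2 regulators Grn was lower with every article and Tfeb was not called. Grn encodes progranulin, a secreted protein that is carried to lysosomes and cut there into granulins. It ran from 7.92 to 8.44 in media-only control (median 8.08), from 6.84 to 8.41 with Copaxone (median 7.57), from 6.84 to 7.83 with Glatopa (median 7.39) and from 7.28 to 7.86 with ACN (median 7.61). Only Copaxone lot 3 replicate 2, at 8.41, was within the media-only range. The differences were -0.58 ± 0.12, -0.74 ± 0.11 and -0.53 ± 0.09 (adjusted p = 0.00141, 1.72e-05 and 0.0011). Tfeb, a transcription factor of many lysosomal genes, ran from 5.42 to 6.25 in media-only control and from 4.84 to 6.25 with Copaxone, and its differences of 0.02, 0.10 and -0.15 were not called.

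Counted over the list, 6 genes were below every media-only sample in all 17 Copaxone samples (Ctsd, Ctsl, Lipa, Psap, Mcoln1 and Cd63), as were 1.43% of all probes. With Glatopa this held for 9 genes (Ctsd, Ctsl, Ctsb, Ctsk, Lgmn, Lipa, Psap, Cd63 and Grn), against 1.89% of probes, and with ACN for 5 (Ctsd, Lipa, Psap, Lgmn and Grn), against 1.1%.

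The fall of these genes came together with changes in markers of several cell types of the wells. Of 20 monocyte and macrophage markers, 7 (35%, against 7.46% of all probes) were lower and 1 (5%, against 8.71%) was higher with Copaxone. With Glatopa and with ACN 7 (35%, against 8.56% and 3.36% of all probes) were lower and 0 were higher. The median of the 20 markers was -0.17 with Copaxone, -0.16 with Glatopa and -0.12 with ACN. The lower ones with Copaxone were Lyz1 (-1.62), Mpeg1 (-1.43), Fcgr1 (-0.93), Csf1r (-0.84), Adgre1 (-0.75), Ccr2 (-0.72) and Spic (-0.57). They were named after their values were seen, and the 1 higher marker is not named here. The defining markers C1qa, C1qb and C1qc had means of 4.86 to 5.08 in media-only control, close to the array median, and were not called with Copaxone. The summed level of the 20 markers ran from 12.51 to 13.45 in media-only control (log2 scale, median 13.29), from 11.79 to 12.90 with Copaxone (median 12.65), from 11.07 to 12.97 with Glatopa (median 12.59) and from 12.29 to 13.31 with ACN (median 12.80). Their part in the result for the lysosomal genes was not tested.

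T cell markers were also lower, 5 of 10 (50%, against 7.46% of all probes) with Copaxone (median -0.78). With Glatopa 7 (70%, against 8.56%) and with ACN 5 (50%, against 3.36%) were lower. Their summed level ran from 11.50 to 11.76 in media-only control, from 10.87 to 11.26 with Copaxone, from 10.93 to 11.27 with Glatopa and from 10.98 to 11.43 with ACN. Cd3d had a mean of 9.75 in media-only control, whereas the probe of Cd4, the marker in the labelled cell type, was at 5.17, near the array median. Of 10 B cell markers 2 (20%) were higher and 2 (20%) lower with Copaxone, and of 10 dendritic cell markers 2 (20%) were higher and 3 (30%) lower. Of 10 neutrophil markers 4 (40%) were lower, and of 7 NK cell markers 2 (28.6%) were higher. Of 5 platelet markers 3 (60%) and of 5 erythroid markers 1 (20%) were lower. Over all probes 8.71% were higher and 7.46% lower, and counts of 1 or 2 genes in lists this short are no result about them. The summed platelet level ran from 11.81 to 12.15 in media-only control and from 10.66 to 11.72 with Copaxone, with no overlap. The part of these cells in the result was not tested either.

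Between articles none of the 37 genes was called. Between Glatopa and Copaxone 0 of 39430 probes (0%) were called, 1 of the 37 genes (2.7%, against 4.13% of all probes) had an unadjusted p under 0.05, and the t-test of the methods called 0 of the 37 as well. The 3 genes with the smallest p were Ctsc (Glatopa minus Copaxone -0.10, 95% interval -0.19 to -0.00), Tpp1 (0.10, -0.00 to 0.20) and Gla (0.63, -0.13 to 1.38), each with an adjusted p of 0.995. Tpp1 ran from 4.76 to 5.30 with Copaxone (median 5.05), from 4.99 to 5.41 with Glatopa (median 5.12), from 4.84 to 5.37 with ACN (median 5.02) and from 4.75 to 5.31 in media-only control (median 5.13), so all groups overlapped. Leaving Gla aside, the 95% intervals of the 36 other genes lay between -0.37 and 0.30. Each interval is for 1 gene alone and takes wells of the same lot as independent, so together they set no bound on differences between the articles. For Ctsd the Glatopa and Copaxone means were 9.06 and 9.08, and for Lipa 6.66 and 6.65.

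Between ACN and Copaxone 0 of the 37 genes were called, against 0.112% of all probes, with 3 (8.11%, against 8.01% of all probes) at an unadjusted p under 0.05: Ctsd (ACN minus Copaxone 0.29, 95% interval 0.13 to 0.44, adjusted p = 0.132), Ctsl (0.37, 0.12 to 0.62, adjusted p = 0.299) and Cd63 (0.25, 0.03 to 0.47, adjusted p = 0.528). Between ACN and Glatopa 0 were called as well, against 0.68% of all probes, and 12 (32.4%, against 10.7% of all probes) had an unadjusted p under 0.05. The t-test of the methods called 0 in both. The smallest were Ctsd (ACN minus Glatopa 0.30, 95% interval 0.15 to 0.45, adjusted p = 0.0603), Glb1 (-0.24, -0.37 to -0.11, adjusted p = 0.0783) and Lgmn (0.30, 0.12 to 0.48, adjusted p = 0.125). Glb1, the beta-galactosidase, ran from 5.78 to 6.15 with ACN (median 5.87), from 5.83 to 6.44 with Glatopa (median 6.19), from 5.48 to 6.68 with Copaxone (median 6.16) and from 5.81 to 6.34 in media-only control (median 6.23). Without ACN replicate 3, Ctsd was called between ACN and Glatopa (0.34, adjusted p = 0.0263). All 12 genes lower with every article had a higher mean with ACN than with Copaxone and than with Glatopa, while over the 37 genes 24 and 19 had. The 12 were chosen on the same samples, so this count is a description.

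**Figure D3:**
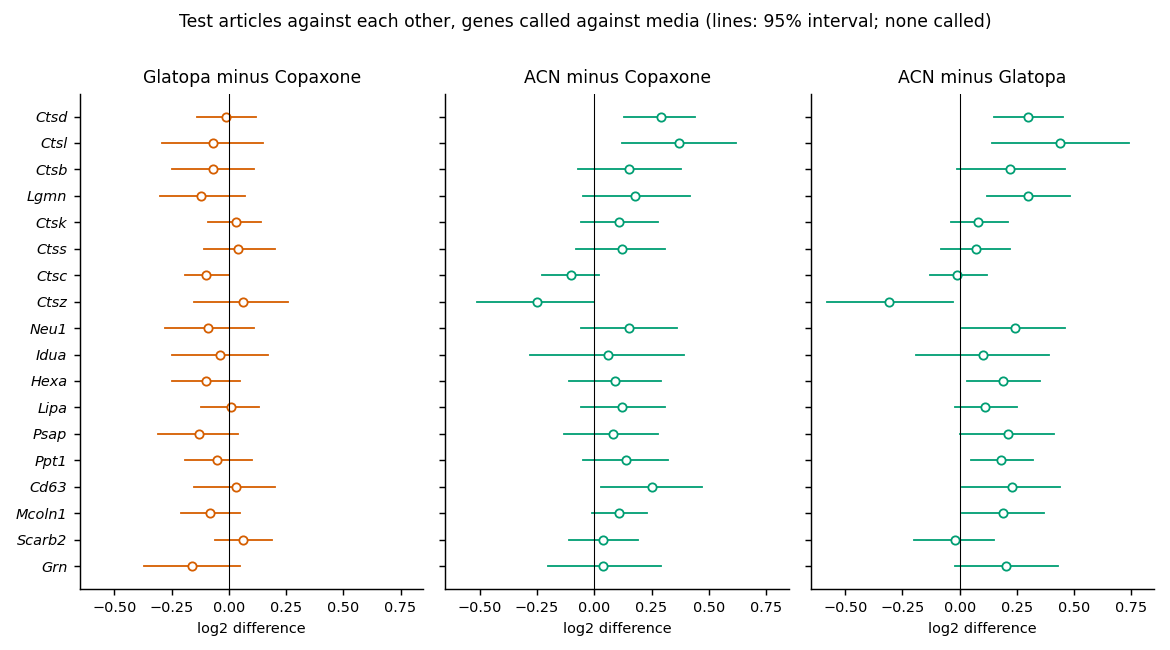
Differences between test articles (log2 scale, x axis) for the 18 lysosomal genes called with any article against media-only control. Lines are 95% intervals, and no gene was called. The lowest Glatopa minus Copaxone point is Grn at -0.16, and Ctsd and Ctsl lie right of 0 in both ACN panels.

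For Ctsd, Lipa and Psap, every Copaxone and Glatopa lot lay on the same side of media-only control. This did not hold for Gla, which was not called. Its lot means of 8.66 to 12.39 with Copaxone overlapped the media-only range of 10.91 to 13.01. The lot means of Ctsd ran from 8.93 to 9.33 over the 9 Copaxone lots and from 8.99 to 9.10 over the 4 Glatopa lots. The SD between lot means was 0.13 and 0.05, and that between wells of a lot was 0.18 and 0.21. For Lipa the lot means ran from 6.39 (lot 8, a single sample) to 7.03 (lot 9) with Copaxone and from 6.58 to 6.76 with Glatopa, with an SD between lot means of 0.19 and 0.09. For Psap the Copaxone lot means ran from 8.84 to 9.52, with an SD of 0.23 between lot means and 0.14 within lots. With Glatopa the order was the reverse, with 0.07 between and 0.27 within. The spread between lots was not tested. Every lot mean of Ctsd, Lipa and Psap was below the lowest media-only sample (9.97, 7.54 and 9.84).

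**Figure D4:**
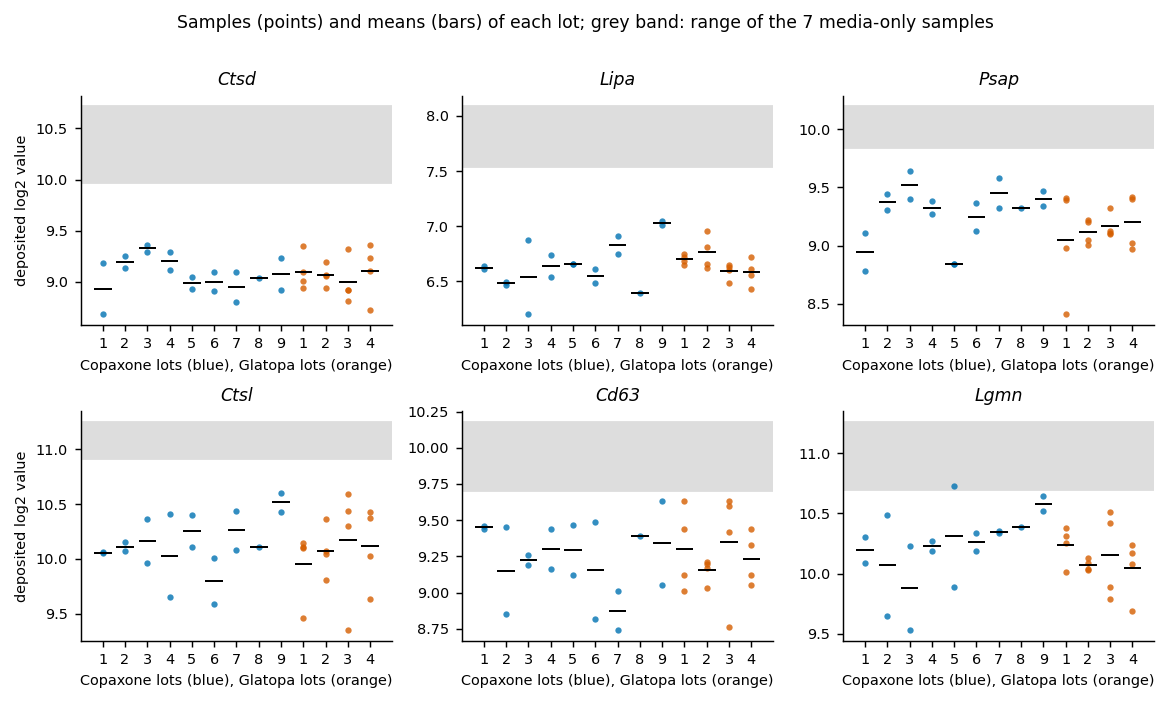
Deposited log2 values (y axis) of 6 lysosomal genes by lot of Copaxone (9 lots, blue) and Glatopa (4 lots, orange). Points are samples, black bars are lot means, and the grey band spans the 7 media-only samples. For Ctsd, Lipa, Psap, Ctsl and Cd63 no sample enters the band, and for Lgmn 1 Copaxone sample does.

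Other genes of the lysosome were counted by lists chosen for function. Of 29 other hydrolases and cofactors, 6 (20.7%, against 7.46% of all probes) were lower and 2 (6.9%, against 8.71%) higher with Copaxone. With Glatopa 7 (24.1%, against 8.56%) were lower and 2 (6.9%, against 10.3%) higher. With ACN 4 (13.8%, against 3.36%) were lower and 1 (3.45%, against 3.73%) was higher. The largest differences with Copaxone were those of Acp5 (tartrate-resistant acid phosphatase, -0.74, adjusted p = 0.000449), Prcp (a carboxypeptidase, -0.67, adjusted p = 8.55e-07) and Scpep1 (a serine carboxypeptidase, -0.59, adjusted p = 5.52e-05), and of Ctsw, a cathepsin of cytotoxic lymphocytes, which was higher (0.57, adjusted p = 0.000367). Of 21 other membrane proteins and transporters, 5 (23.8%) were lower and 2 (9.52%) higher with Copaxone. With Glatopa 6 (28.6%) were lower and 3 (14.3%) higher, and with ACN 3 (14.3%) were lower and 2 (9.52%) higher, against the same shares of all probes as above. Slc11a1, a metal transporter of phagocytes (-0.97), Slc17a5, which exports sialic acid (-0.58), and Slc38a9, an arginine sensor (-0.53), were lower with Copaxone, and Slc15a3, a peptide and histidine transporter, was higher (1.23, adjusted p = 2.78e-07).

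The shares of genes of the proton pump, the sorting machinery and autophagy that were higher with Copaxone were 11.1%, 11.5% and 4.76%, and those lower were 0%, 7.69% and 9.52%. Over all probes 8.71% were higher and 7.46% lower, so these shares with Copaxone are near the background and are no result about these lists. No list was tested as a set. Of 18 V-ATPase subunits 2 were higher and 0 lower with Copaxone (Atp6v1h 0.49 and Atp6v0a2 0.37), with a median of 0.03. With Glatopa 4 (22.2%, against 10.3% of all probes) were higher and 1 (5.56%, against 8.56%) was lower, with a median of 0.05. With ACN 1 (5.56%, against 3.73%) was higher and 0 were lower. Of 26 genes of sorting, fusion and nutrient signalling 3 were higher and 2 lower with Copaxone: Rraga, a Rag GTPase (0.38), M6pr, a mannose 6-phosphate receptor (0.35), and 1 further gene were higher, and Flcn (-0.34) and Lamtor4 (-0.32), both of the nutrient-sensing machinery, were lower. With Glatopa 3 (11.5%, against 10.3%) were higher and 3 (11.5%, against 8.56%) lower, and with ACN 0 and 0 (against 3.73% and 3.36%). Of the 3 other MiT/TFE factors, Mitf was lower (-0.41, adjusted p = 0.00201) and Tfec was higher (0.19, adjusted p = 0.0271) with Copaxone. With Glatopa Mitf alone was called (-0.32), and with ACN none was. In a list of 3 genes 1 call is 33.3%, too coarse to set against the shares of all probes. Of 8 cathepsin inhibitors Cstb alone (12.5%, against 7.46% of all probes) was lower with Copaxone (-0.52, adjusted p = 0.0035). With Glatopa 1 (12.5%, against 10.3%) was higher and 2 (25%, against 8.56%) were lower, and with ACN 1 (12.5%, against 3.73%) was higher. Counts of 1 or 2 genes in a list of 8 are no result about it. Of 21 autophagy genes 2 were lower (Map1lc3b and Atg7, both -0.43) and 1 higher (Becn1, 0.30) with Copaxone. With Glatopa 3 (14.3%, against 8.56%) were lower and 1 (4.76%, against 10.3%) was higher. With ACN 1 (4.76%, against 3.36%) was lower and 0 were higher.

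The list of class II antigen processing held 11 genes that work in the same compartments. With Copaxone and with Glatopa 6 (54.5%, against 8.71% and 10.3% of all probes) were higher and 2 (18.2%, against 7.46% and 8.56%) lower (median 0.55 in both). With ACN 3 (27.3%, against 3.73%) were higher and 2 (18.2%, against 3.36%) lower (median 0.47). Ifi30, the lysosomal thiol reductase (0.97, adjusted p = 1.59e-05), H2-DMb2 (0.97, adjusted p = 1.58e-05) and H2-DMa (0.81, adjusted p = 4.06e-05), whose product helps to load peptides, were higher with Copaxone, while H2-Ob, part of the H2-O inhibitor of that step, was lower (-0.73, adjusted p = 0.0373). The invariant chain protease Ctss was lower (-0.50) in the same samples in which these genes were higher.

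**Figure D5:**
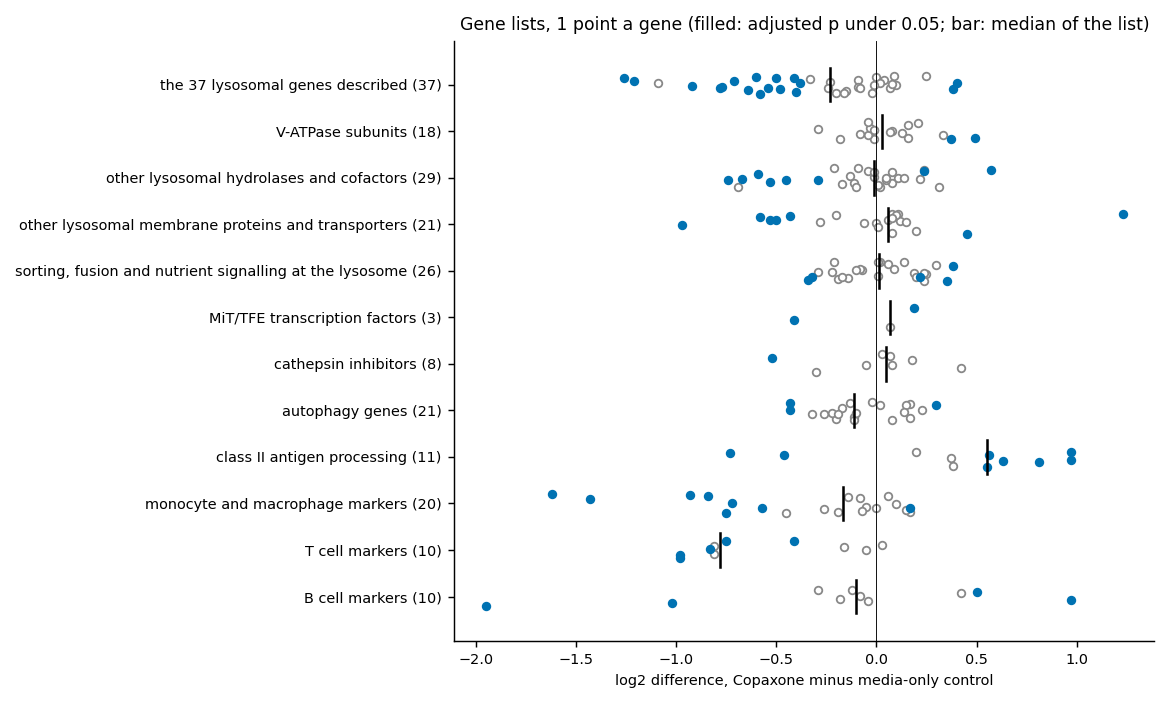
Difference between Copaxone and media-only control (log2 scale, x axis) for each gene of the 37 lysosomal genes, of 8 other lists and of 3 lists of cell markers, with the number of genes in brackets. Filled points are called, and the black bar is the median of the list. The bar of the lysosomal genes is at -0.23, that of the class II genes at 0.55 and that of the T cell markers at -0.78.

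The lysosomal genes varied between wells of a group with a median SD of 0.23, against 0.16 over all probes. The 4 arrays least like their group were Copaxone lot 9 replicate 1, Copaxone lot 7 replicate 1, ACN replicate 2 and Media replicate 6. Media replicate 6 held the lowest media-only value for 14 of the 37 genes, and Copaxone lot 9 replicate 1 the highest Copaxone value for 13. Without these 4 arrays 16, 18 and 15 of the 37 genes were lower and 1, 2 and 0 were higher with Copaxone, Glatopa and ACN.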

How the data were processed

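RNA of 48 wells was hybridised to single-dye (Cy3) mouse arrays. Per the methods of the study, the authors extracted median fluorescence intensity with GenePix, corrected the background with normexp, quantile-normalized the arrays with limma (version not given in the sources used here) and deposited log2 values, which ran from 3.04 to 15.4. Wells were tested on the same day in randomized order. Slides hold several arrays, and the slide of each array was not given in the sources used here. The number of arrays limits the precision.

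The 43020 spots gave 39430 probes after averaging 387 sets of at least 10 spots of a gene. All fits used limma 3.58.1 in R 4.3.3. A symbol from the platform annotation was at hand for 29436 probes. Each pair of groups was fitted alone (lmFit, eBayes) and p-values were adjusted by Benjamini-Hochberg over all probes (calls at 0.05). Errors after ± are SE. The procedure was run on simulated data with known changes in 200 probes. Probes and wells were drawn independently there, so the run says nothing about wells that share a lot. Promoter windows came from RefSeq (GRCm38.p6).

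The members and lists were chosen with earlier results of these data known. All 37 genes are named. Ranges and full statistics are given for the 14 with the largest difference between Copaxone and media-only control, for those called in the opposite direction, and for the 3 with the smallest p between articles. From each pathway list up to 4 genes called with Copaxone are named, and beside these the cell markers called lower in the monocyte and macrophage list, named after their values were seen. Alternatives changed the scaling, test, variance prior, probe choice, filter, lot, replicate number and samples. The replicate numbers were not taken to pair samples.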

Additional observations from a re-analysis of the deposited data

Results flagged for a closer look

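In 8 of the 74 groups of 4 to 10 samples (37 genes in media-only control and ACN), the lowest sample stood apart from the others by a large share of the range of its group. Chance gives about 5% of groups. In media-only control, Gla was at 10.91 in replicate 2 with the next sample at 12.44, and Neu1 at 8.27 in replicate 4 with the next at 8.87. Lamp2 was at 7.28 and Smpd1 at 7.17 in Media replicate 6, with the next samples at 7.65 and 7.60. In ACN, Idua was at 11.63 in replicate 1 (next 12.68), Gaa at 5.96 in replicate 5 (next 6.81), Gusb at 6.59 in replicate 4 (next 6.89) and Npc2 at 8.92 in replicate 7 (next 9.30).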

How the results depend on the processing

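Of 48 called differences of single lysosomal genes, 30 kept their call under every alternative and 0 changed sign. The number lower with Copaxone was 15 as reported, 9 with the replicate block and 14 to 18 in the other settings that kept all lots or dropped the 4 arrays least like their group. In these settings it was 14 to 21 with Glatopa and 10 to 15 with ACN, except 4 for ACN with lot as a random block. Copaxone has only replicate numbers 1 and 2, so the replicate block sets it against Media replicates 1 and 2 alone. The Copaxone results with that block thus rest on fewer media-only samples. With the replicate block the Copaxone calls of Ctsk (-0.35, adjusted p = 0.191), Ctss (-0.60, 0.0723) and Lgmn (-0.66, 0.0871) were lost. So were those of Grn (-0.76, 0.0518), Hexa (-0.27, 0.57) and Idua (-0.43, 0.414), and the ACN calls of Ctsl (-0.51, 0.0741) and Neu1 (-0.42, 0.121). The number higher with Copaxone dropped from 2 to 1 with cyclic loess, the replicate block and without the 4 arrays least like their group (an alternative chosen after seeing the data). The 1 gene higher with ACN was lost (0) in these settings and with an intensity trend and robust prior or lot as a random block. Between ACN and Glatopa 1 gene was higher with cyclic loess and in the brighter part of the probes, and 3 were higher (Ctsd, Ctsl, Lgmn) and 1 lower (Glb1) with lot as a random block, against 0 as reported. The causes were not tested. With 1 ACN lot, the random block cannot part lot from article in comparisons of ACN. Without single lots or samples, 13 to 16 were lower and 2 higher with Copaxone, 14 to 18 lower and 2 to 3 higher with Glatopa, 11 to 15 lower and 0 to 1 higher with ACN, and 0 to 1 higher between ACN and Glatopa. Correlations between same-numbered samples of 2 groups, each group centred on its mean, ran from -0.467 to 0.178. Centring ties the replicates of a group with few numbers, such as Copaxone, to each other. These correlations therefore cannot decide whether the numbers pair samples. Means per lot were not run for ACN against media-only control, since ACN was 1 lot. Genes near the array median, such as Ctsf, Tpp1, Npc1 and Cd68, have little signal over background, which limits what their values can show.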
